A study of Mus musculus with 9 samples.

Results

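The genes described here mark the intermediate cells of the stria vascularis and other pigment cells. They are 10 genes named by symbol beforehand, Dct, Tyr, Pmel, Mlana, Mitf, Tyrp1, Trpm1, Slc45a2, Kcnj13 and Gsta4, of 25579 gene symbols in the larger of 2 deposited tables. RNA came from the cochlear membranous labyrinth, the soft tissue inside the bony shell of the cochlea, of mice at postnatal day 28. The treated group was homozygous for hMPZL2 Q74X, a humanized MPZL2 allele with a nonsense variant, and had received AAV-ie-ABE8eWQ-SpRY:sgRNA3, in which an adeno-associated virus delivers an adenine base editor with its guide. It was given on postnatal day 2 by the round window membrane route. The homozygous group carried the same allele on both chromosomes and had no treatment in its labels, and the Mpzl2 WT group carried the mouse gene. Each group had 3 libraries labelled as biological replicates. No line, strain or sex was given in the sources used here. The study asked which molecular pathways are involved in the cochlear pathology of the MPZL2 variant.

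Intermediate cells lie in the middle layer of the stria vascularis, between marginal and basal cells. They derive from the neural crest like skin melanocytes, contain melanin, and their potassium channels generate the endocochlear potential that drives hair cell transduction. In pigment cells the transcription factor Mitf binds a short sequence called the M-box before the genes of melanin synthesis. Tyrosinase (Tyr) catalyses the first and limiting step, and dopachrome tautomerase (Dct) and Tyrp1 act on later intermediates inside the melanosome.

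The M-box core TCATGTG was looked up in promoter windows of these genes to show what the levels below can be set beside. RefSeq windows (GRCm38.p6) reaching from 250 bases before to 50 bases after a transcription start were at hand for 6 of the 10 genes, 9 windows in all, with 3 for Mitf and 2 for Trpm1. The core TCATGTG, read on both strands, was present in 5 of the 9 windows and in 5 of the 6 genes. It was in 3.77% of all 32851 windows and 4.31% of all 27025 genes with a window. The shorter CATGTG, which the core contains, was in 14.2% of windows.  The core was in 0 of the 3 Mitf windows, which says only that these letters are not there. The stretches of 30 bases around it are given below, 5′ to 3′ on the strand of the gene, with the core in capitals. In Kcnj13 and in the second Dct stretch the core lies on the opposite strand and reads CACATGA.
Tyr (chr7:87493516-87493545, minus strand, first base of the core at -22): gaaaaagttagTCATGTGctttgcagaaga
Tyrp1 (chr4:80834155-80834184, plus strand, -47): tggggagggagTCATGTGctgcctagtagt
Dct (chr14:118052379-118052408, minus strand, -151): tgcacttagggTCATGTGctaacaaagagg
Dct (chr14:118052460-118052489, minus strand, -232): cttggctgggaCACATGAgcccaataaaga
Trpm1 (chr7:64153682-64153711, plus strand, -142): ccaaatcctcaTCATGTGcccaccccaaac
Kcnj13 (chr1:87394823-87394852, minus strand, -112): gcattcttttcCACATGAtcagagctaatt

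For Dct and Tyr, the melanin synthesis genes with the highest levels, the whole 250 bases before the start are shown, with the core in capitals.
Dct (chr14:118052247-118052496, minus strand): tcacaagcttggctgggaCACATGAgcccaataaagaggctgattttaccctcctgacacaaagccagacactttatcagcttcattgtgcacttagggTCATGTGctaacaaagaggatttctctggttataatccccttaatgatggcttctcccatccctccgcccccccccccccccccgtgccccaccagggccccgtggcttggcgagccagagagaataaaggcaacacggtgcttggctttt
Tyr (chr7:87493513-87493762, minus strand): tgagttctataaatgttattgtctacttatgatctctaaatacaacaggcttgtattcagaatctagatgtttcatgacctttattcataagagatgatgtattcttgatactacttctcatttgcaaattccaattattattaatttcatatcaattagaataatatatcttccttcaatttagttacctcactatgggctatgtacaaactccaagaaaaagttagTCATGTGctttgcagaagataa

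Levels are in TPM, a relative abundance of transcripts scaled by their length and by the library total, so that levels of different genes can be set side by side. The first deposited table held 1410 symbols in the homozygous and WT libraries, with 4 of the 10 genes. The second held 25579 symbols in the treated and homozygous libraries, with all 10. The sequencing depth is unknown. Mpzl2, the targeted gene, was at 12.5 to 23.2 TPM in the homozygous and 33.6 to 49.0 TPM in the WT libraries of the first table. In the second table it was at 5.62 to 16.3 TPM in treated and 13.1 to 24.0 TPM in homozygous libraries. How reads of the humanized allele were assigned was not stated. Treated libraries 1 and 2 were close to identical, with a scaled median absolute deviation of 0.0695 for their log2 ratio over genes at 1 to 5 TPM. The same measure was 0.869 to 1.09 between homozygous libraries. They were counted as 1 sample through their mean, so that the treated group had 2 samples. The same libraries also held forebrain transcripts: 7 marker genes of forebrain neurons, with Tbr1 and Neurod6 among them, summed to 843, 819 and 21.9 TPM in treated libraries 1, 2 and 3, against 7.86 to 24.2 TPM in homozygous libraries. Mitochondrial transcripts made up 2.17% to 6.16% of TPM in treated and 10.7% to 13.6% in homozygous libraries.

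Dct and Gsta4 had the highest and second highest levels of the 10 genes in each of the 6 libraries of the second table. Dct had 490, 498 and 1080.3 TPM in treated libraries 1, 2 and 3, against 508.5, 1027 and 398 TPM in homozygous libraries 1, 2 and 3. It ranked between 68 and 251 of all symbols by level. Gsta4, which encodes a glutathione S-transferase that conjugates products of lipid peroxidation, had 361, 371 and 997 TPM in treated and 392, 715 and 314 TPM in homozygous libraries. In both genes 1 library of each group, treated 3 and homozygous 2, stood above the others, and the groups overlapped.

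Tyr had 29.5, 28.1 and 85.3 TPM in treated libraries, against 35.4, 72.6 and 28.1 TPM in homozygous libraries. Mlana, the gene of a melanosomal membrane protein also called MART-1, had 8.68, 8.54 and 37.9 TPM in treated and 10.1, 17.4 and 8.44 TPM in homozygous libraries. Slc45a2, which encodes a melanosomal transporter, had 12.8, 12.6 and 33.4 TPM in treated and 9.21, 26.7 and 9.05 TPM in homozygous libraries. The same 2 libraries were again the highest of their groups in all 3 genes, and the groups overlapped.

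Other melanosome genes were close to 0. Pmel, which encodes the protein that forms the fibrils on which melanin is laid down, had 1.58, 1.52 and 0.814 TPM in treated and 2.67, 3.31 and 1.66 TPM in homozygous libraries. Tyrp1 had 0.0893, 0.0828 and 0.0379 TPM in treated and 0.388, 0.675 and 1.04 TPM in homozygous libraries, so that 1 of 6 libraries reached 1 TPM. Each treated library was below each homozygous library in both genes. Tyrp1 did not pass the filter on low values (1 TPM in at least 3 libraries) and was not tested. Its window held the same core as that of Tyr, as shown above, and it was at most 0.262% of the Dct level of its library, where Tyr was at 5.64% to 7.89%.

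Mitf, Trpm1 and Kcnj13 did not follow Dct in the same way. Mitf, which other cell types use as well, had 57.6, 58.7 and 85.3 TPM in treated and 80.0, 90.9 and 85.0 TPM in homozygous libraries. Trpm1, a cation channel gene first found in melanocytes, had 21.1, 21.4 and 17.2 TPM in treated and 12.7, 27.9 and 9.81 TPM in homozygous libraries. Kcnj13, which encodes an inwardly rectifying potassium channel, had 83.8, 52.1 and 24.3 TPM in treated and 7.76, 16.7 and 11.2 TPM in homozygous libraries. For Kcnj13 each treated library was above each homozygous library, while the groups overlapped for Mitf and Trpm1.

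**Figure D1:**
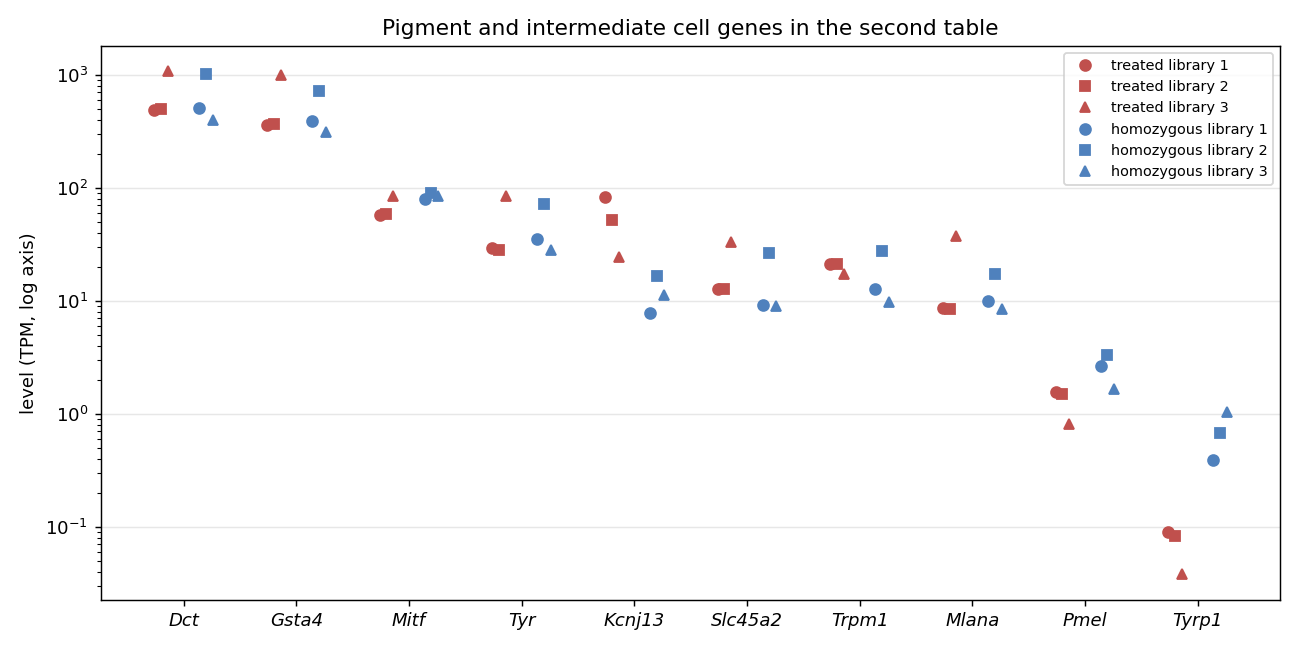
Level of each of the 10 genes (TPM, log axis) in the 3 treated libraries (red, left of each pair) and the 3 homozygous libraries (blue, right), with a symbol for each library number. Dct and Gsta4 lie highest and Tyrp1 near or below 1 TPM, and treated library 3 and homozygous library 2 are the highest of their groups for Dct, Gsta4, Tyr, Slc45a2 and Mlana.

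Markers of other pigmented or Mitf-using cells were at mixed levels. In the 6 libraries of the second table Rpe65 of the retinal pigment epithelium was at 0 to 0.79 TPM and Grm6, which marks the retinal bipolar cells that use Trpm1, at 0 to 0.0221 TPM. The 6 listed mast cell genes in the table summed to 4.05, 4.19 and 12.7 TPM in treated and 2.64, 4.52 and 2.38 TPM in homozygous libraries, with Cpa3 at 0 in the treated libraries. The 8 osteoclast genes summed to 25.3 to 29.3 TPM in treated and 17.4 to 69.2 TPM in homozygous libraries. Most of that sum was Ctsk, a collagen-degrading protease gene, at 4.05, 3.88 and 16.0 TPM in treated and 32.0, 43.2 and 14.6 TPM in homozygous libraries, and Mmp9, at 20.2, 19.4 and 11.5 TPM in treated and 1.88, 15.0 and 1.52 TPM in homozygous libraries. Macrophage genes, given further on, were higher still. The part of these cells in the Mitf level was not tested. Rlbp1, a retinoid-binding protein gene of retina that is not restricted to it, was at 37.7 to 63.4 TPM in treated and 8.06 to 23.05 TPM in homozygous libraries. Kcnj10, the potassium channel gene that is the functional hallmark of intermediate cells, was present in each of the 6 libraries, at 127 to 185 TPM in treated and 95.3 to 137 TPM in homozygous libraries. The part of other cells or of the forebrain transcripts in the Kcnj10 level was not tested.

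Several pigment cell genes also differed between libraries of the same group. Treated library 3 had 2.19 times the mean Dct level of treated libraries 1 and 2, 2.96 times for Tyr, 2.72 times for Gsta4, 2.63 times for Slc45a2 and 4.40 times for Mlana. It had 1.47 times for Mitf, but 0.813 times for Trpm1, 0.527 times for Pmel, 0.441 times for Tyrp1 and 0.358 times for Kcnj13. Homozygous library 2 had 2.27 times the mean Dct level of homozygous libraries 1 and 3, 2.29 times for Tyr, 2.02 times for Gsta4, 2.92 times for Slc45a2 and 1.88 times for Mlana. It had 1.10 times for Mitf, 2.48 times for Trpm1, 1.53 times for Pmel, 0.944 times for Tyrp1 and 1.76 times for Kcnj13. Genes of strial marginal cells, the ion-transporting layer that faces the endolymph, differed between the same libraries by a similar factor. Their 11 genes, such as Kcne1, Kcnq1 and Lrp2, summed to 1752, 1758 and 3301 TPM in treated and 1766, 3121 and 1407 TPM in homozygous libraries. That is 1.88 times in treated library 3 and 1.97 times in homozygous library 2. Sums of the other pigment cell and strial lists differed less between these libraries. In treated library 3 and homozygous library 2, other intermediate cell genes were at 1.43 and 1.46 times. Melanosome transport and biogenesis genes were at 1.17 and 1.24 times, and pigment cell regulators and receptors at 0.775 and 0.965 times. Strial basal cell genes were at 1.68 and 1.08 times. Schwann cell genes went the other way in homozygous library 2, at 0.487 times the mean of the other 2. Some lists of other cells differed as much or more in at least 1 of these libraries. In treated library 3 and homozygous library 2, central glia genes were at 0.160 and 0.407 times. Forebrain neuron genes were at 0.0263 and 2.68 times, mast cell genes at 3.08 and 1.80 times and osteoclast genes at 1.11 and 2.60 times. In bulk tissue, more cells of a type and more RNA per cell cannot be told apart.

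**Figure D2:**
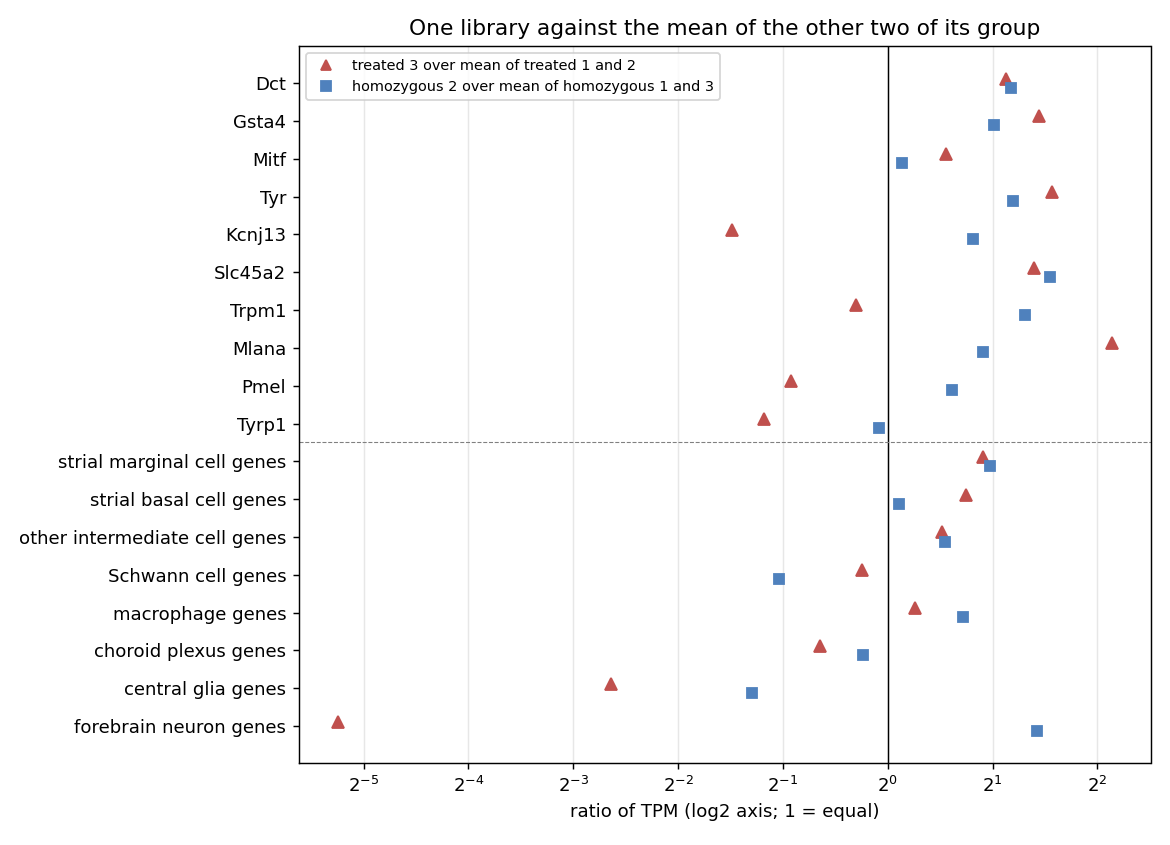
Ratio of the TPM of treated library 3 to the mean of treated libraries 1 and 2 (red triangles), and of homozygous library 2 to the mean of homozygous libraries 1 and 3 (blue squares), on a log2 axis, for the 10 genes above the dashed line and for sums over marker lists below it. Dct, Gsta4, Tyr and Slc45a2 lie near or above 2 in both, beside the strial marginal cell sum at 1.88 and 1.97, and Kcnj13 is at 0.358 in treated library 3. The other intermediate cell sum is at 1.43 and 1.46, and the strial basal cell sum at 1.68 and 1.08.

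Set against the Dct level of the same library, several genes kept a narrow proportion. Tyr was at 6.02%, 5.64% and 7.89% of Dct in treated libraries and at 6.95%, 7.07% and 7.06% in homozygous libraries. Gsta4 was at 73.7%, 74.4% and 92.3% of Dct in treated and at 77.1%, 69.6% and 78.9% in homozygous libraries. Dct itself was at 27.9%, 28.4% and 32.7% of the summed marginal cell genes in treated libraries, against 28.8%, 32.9% and 28.3% in homozygous libraries. These proportions were computed after the levels had been seen and are given without a test.

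Trpm1 departed from this in the treated libraries. It was at 4.30%, 4.28% and 1.60% of Dct in treated libraries, against 2.51%, 2.72% and 2.46% in homozygous libraries, so that treated libraries lay on both sides. Mlana was at 1.77%, 1.71% and 3.51% of Dct in treated and at 1.98%, 1.69% and 2.12% in homozygous libraries. Slc45a2 was at 2.61%, 2.53% and 3.10% in treated and at 1.81%, 2.60% and 2.27% in homozygous libraries. Pmel was at 0.322%, 0.304% and 0.0754% in treated and at 0.524%, 0.322% and 0.417% in homozygous libraries. Mitf was at 11.8%, 11.8% and 7.90% in treated and at 15.7%, 8.85% and 21.3% in homozygous libraries. Tyrp1, near 0 throughout, was at 0.0182%, 0.0166% and 0.00351% in treated and at 0.0763%, 0.0657% and 0.262% in homozygous libraries, without overlap. Kcnj13 was at 17.1%, 10.5% and 2.25% of Dct in treated and 1.53%, 1.62% and 2.82% in homozygous libraries. Treated library 3 thus lay within the homozygous range for Kcnj13 per Dct and treated libraries 1 and 2 above it.

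**Figure D3:**
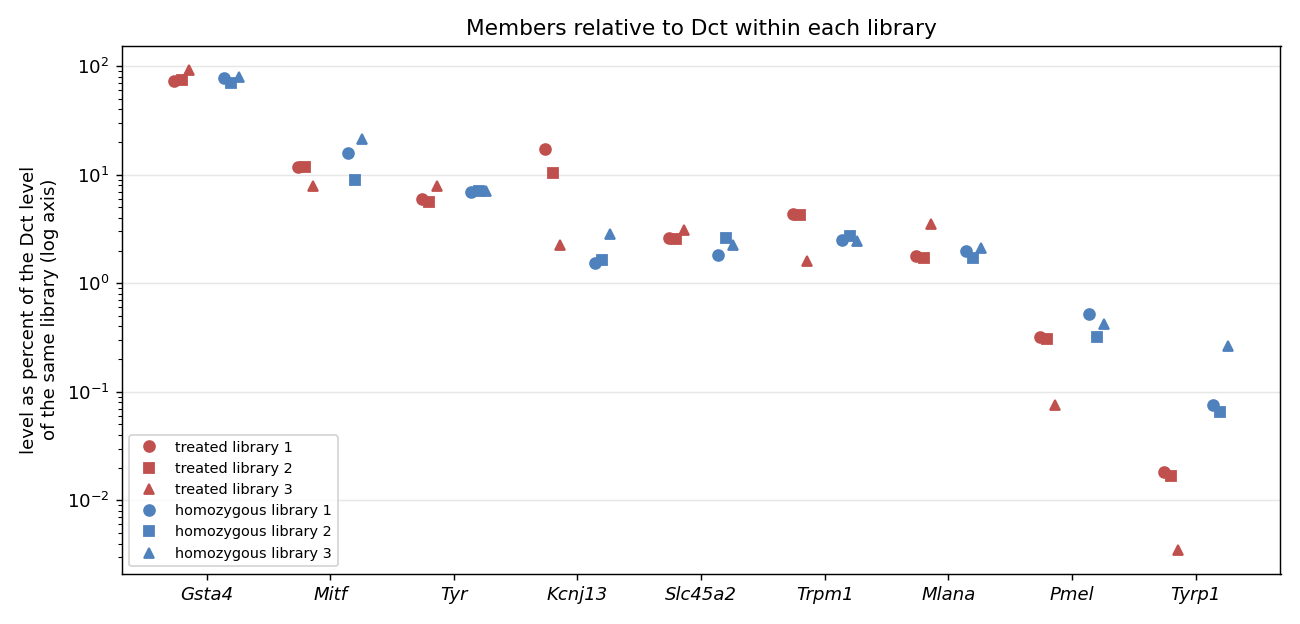
Level of the other 9 genes as a percentage of the Dct level of the same library (log axis), in the 3 treated libraries (red, left of each pair) and the 3 homozygous libraries (blue, right). Gsta4 and Tyr stay near 70% to 92% and 6% to 8%, while Kcnj13 is at 17.1% and 10.5% in treated libraries 1 and 2 and at 1.53% to 2.82% in the other 4 libraries.

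The comparison of treated with homozygous libraries found no change of a pigment cell gene that passed the test. By limma on log2(TPM + 1), with Benjamini-Hochberg adjustment over 17102 tested genes and a threshold of 0.05, 0 of 9 tested genes passed, against 4.41% of all tested genes (3.44% higher and 0.965% lower). At an unadjusted p under 0.05 there was 1 of 9, against 26.7% (18.8% higher and 7.92% lower). Samples did not overlap in 2 of 9, Kcnj13 higher and Pmel lower, against 45% (29.2% higher and 15.8% lower). The median log2 fold change was 0.31 over the 9 genes and 0.20 over all tested genes. Dct averaged 787 ± 415 TPM in the 2 treated samples and 645 ± 336 TPM in the 3 homozygous ones (SD). Its log2 fold change was 0.30, with a 95% confidence interval of -0.86 to 1.47 (limma adjusted p = 0.728). For Tyr the log2 fold change was 0.25 (interval -1.07 to 1.57), for Gsta4 0.44 (-0.77 to 1.65), for Mlana 0.64 (-0.86 to 2.14) and for Slc45a2 0.62 (-0.81 to 2.04). For Trpm1 it was 0.31 (-0.78 to 1.40), for Mitf -0.27 (-0.79 to 0.25) and for Pmel -0.69 (-1.71 to 0.32). These intervals include 0. For all but Mitf and Pmel they also include a doubling, and for Tyr and Pmel a halving, so differences of that size remain possible. The sign of Dct, Tyr, Gsta4, Mlana and Slc45a2 rested on treated library 3. Without it their log2 fold changes were -0.26, -0.52, -0.28, -0.37 and -0.05. With treated library 3 alone against the 3 homozygous libraries they were 0.87, 1.01, 1.16, 1.65 and 1.28. In both of these fits the treated group is 1 sample, the spread comes from the homozygous libraries alone, and the treated sample is assumed to vary like them, as in every fit below without treated library 3. Tyr was also at -0.03 without homozygous replicate 3.

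Kcnj13 had the smallest p of the 9 genes. It averaged 46.1 ± 30.9 TPM in the 2 treated samples and 11.9 ± 4.49 TPM in the 3 homozygous ones (SD). The log2 fold change was 1.75 with a standard error of 0.50 and an interval of 0.55 to 2.96 (limma adjusted p = 0.0917), so it did not pass. It passed without treated library 3, with 1 merged treated sample and the spread of the homozygous libraries (2.48, limma adjusted p = 0.0287), and with libraries 1 and 2 counted as 2 samples (1.97, limma adjusted p = 0.0314). Over the 6 fits with 1 library left out the adjusted p was 0.0287 to 0.284. With treated library 3 as the 1 treated sample it was 1.03.

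Other values moved in the libraries in which Kcnj13 was high. Kcnj13 is also a channel gene of the choroid plexus, the epithelium that secretes cerebrospinal fluid. Beside the counts in this paragraph, 3.44% of all tested genes were higher and 0.965% lower by the adjusted limma test. At an unadjusted p under 0.05, 18.8% were higher and 7.92% lower. For the choroid plexus, 6 of 8 listed genes were tested and 0 passed limma, with 2 higher at an unadjusted p under 0.05. Their sum was 202, 198 and 128 TPM in treated and 76.3, 74.2 and 98.95 TPM in homozygous libraries. Ttr, the transthyretin gene that defines this epithelium, was at 94.8, 93.2 and 62.0 TPM in treated and 18.2, 13.95 and 32.7 TPM in homozygous libraries (log2 fold change 1.86, limma adjusted p = 0.0512, and 0.0419 with libraries 1 and 2 as the 1 treated sample). Otx2, a transcription factor gene of the same epithelium, was at 47.7, 48.5 and 14.9 TPM in treated and 5.55, 5.47 and 12.2 TPM in homozygous libraries (log2 fold change 1.76, limma adjusted p = 0.119). The defining markers Folr1 and Kcne2 were at 0.16 to 2.53 and 2.10 to 4.22 TPM in treated libraries and 0 to 2.08 and 1.02 to 3.81 TPM in homozygous libraries. Other genes of the list went the other way, with Kl at 6.28, 5.60 and 8.94 TPM in treated and 10.9, 16.5 and 9.14 TPM in homozygous libraries, and Prlr at 0 to 0.0453 TPM in treated and 0.336 to 0.974 TPM in homozygous libraries. Clic6 and Sostdc1 overlapped between the groups. Of the other marker lists, limma passed 0 of 8 Schwann cell genes in treated samples (3 lower at an unadjusted p under 0.05), 0 of 2 osteoclast genes (1 lower), 0 of 1 mast cell gene (1 higher), 0 of 3 retinal genes (1 higher) and 0 of 3 forebrain neuron genes (1 higher). Of the 7 forebrain neuron genes, Tbr1, Neurod2, Neurod6 and Gad2 reached 1 TPM only in treated libraries 1 and 2. They did not pass the filter on low values and were not tested, so the count for this list does not cover them. Of 5 central glia genes 1 passed, Mog, which fell by 3.70 on the log2 scale (limma adjusted p = 0.0415), a call kept in 3 of the 6 fits with 1 library left out. At an unadjusted p under 0.05, 1 central glia gene was higher and 2 were lower. Slc1a2, a glutamate transporter gene of astrocytes, was at 1229, 1236 and 174 TPM in treated and 123, 137 and 137 TPM in homozygous libraries, so that the libraries with the most Kcnj13 also had the most Slc1a2. Gfap and Aqp4 of the same list did not follow Slc1a2. Gfap was at 63.2, 62.0 and 8.20 TPM in treated and 110, 34.1 and 112 TPM in homozygous libraries. Aqp4 was at 39.8, 38.0 and 22.0 TPM in treated and 89.0, 29.1 and 86.0 TPM in homozygous libraries. Of the 5 central glia genes 4 had a negative log2 fold change. The list summed to 1380.5, 1387 and 221 TPM in treated and 698, 317 and 857 TPM in homozygous libraries. The part of choroid plexus cells or of the forebrain transcripts in the Kcnj13 level was not tested.

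The Kcnj13 level carries further uncertainty. In the annotation (GENCODE M21) its exons overlap exons of Gigyf2, a translational repressor gene on the opposite strand of chromosome 1, and the sources used here do not say whether strand was used in quantification. Gigyf2 was at 97.6, 114 and 64.8 TPM in treated and 69.5, 55.9 and 75.4 TPM in homozygous libraries. Treated libraries 1 and 2, which hardly differed otherwise, differed by 0.68 on the log2 scale in Kcnj13. Only 1.65% of the 9233 genes at a mean of 20 TPM or more differed more between them. Pmel likewise shares exon sequence with Cdk2 and Dgka on the opposite strand, and Trpm1 with the unverified transcript Gm44722.

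**Figure D4:**
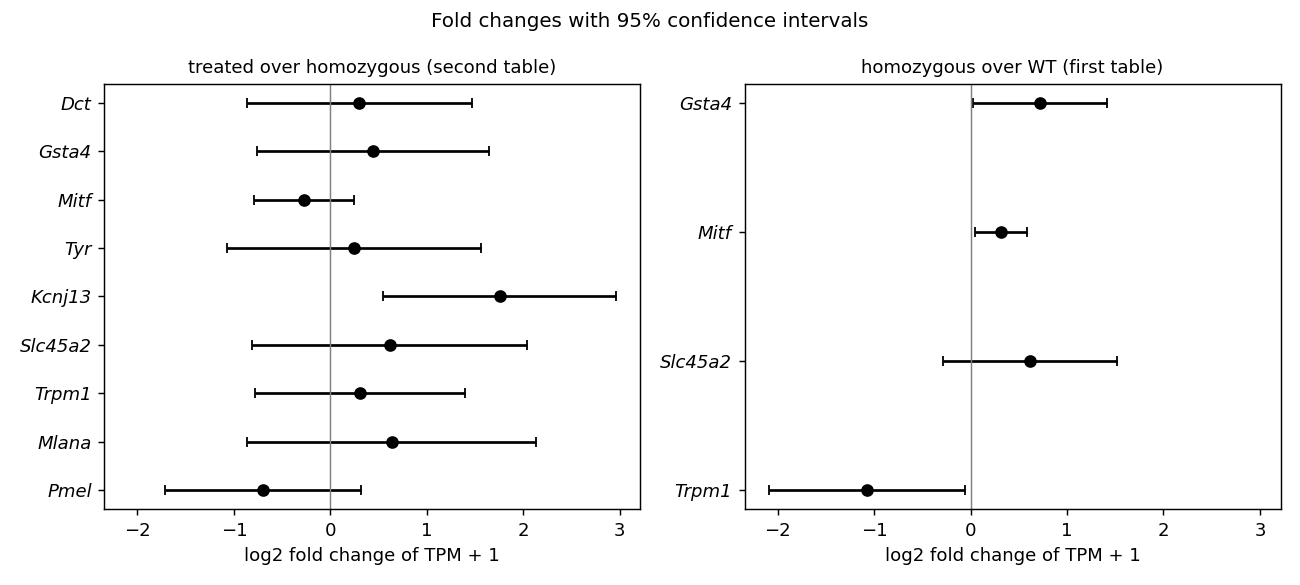
Log2 fold change of TPM + 1 with its 95% confidence interval from limma, for treated over homozygous samples (left, 9 tested genes, n = 2 and 3) and homozygous over WT libraries (right, 4 tested genes, n = 3 each). Intervals include 0 for 8 of the 9 genes on the left, all but Kcnj13, and on the right for Slc45a2.

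The first table held Gsta4, Mitf, Slc45a2 and Trpm1, and WT levels of the other 6 genes were not analysed here. Its rows appear to be chosen on these samples, since the smallest absolute log2 fold change among its 1348 tested genes was 0.243 and 0% were under 0.2, against 21.5% in the second table. The direction and count of its members are therefore not independent evidence. The homozygous libraries are in both tables, with first-table levels at 0.715 to 0.955 times the second-table ones for these 4 genes, so levels are compared within a table. By limma, 0 of 4 genes passed, against 51.3% of the tested genes of that table (17.9% higher and 33.5% lower). At an unadjusted p under 0.05 there were 3 of 4, Mitf and Gsta4 higher and Trpm1 lower, against 75.7% (28.9% higher and 46.7% lower). The median log2 fold change was 0.47 over the 4 genes and -0.36 over the table.

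Mitf had 71.2, 79.9 and 78.0 TPM in homozygous libraries, against 63.3, 59.2 and 60.5 TPM in WT libraries. The 2 groups did not overlap, as in 77.1% of the tested genes of the table (31.5% higher and 45.6% lower). Mitf averaged 76.4 ± 4.53 TPM in homozygous and 61.0 ± 2.11 TPM in WT libraries (SD, n = 3 each). Its log2 fold change was 0.32 with an interval of 0.05 to 0.59 (limma adjusted p = 0.0508). Median-of-ratios scaling, which moved the median of all genes of the table by 0.14 on the log2 scale, made it 0.46 (limma adjusted p = 0.0259).

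Gsta4 had 284, 521 and 225 TPM in homozygous and 256, 171 and 169 TPM in WT libraries. Homozygous library 3 lay below WT library 1, so the groups overlapped, and the log2 fold change was 0.72 with an interval of 0.03 to 1.42 (limma adjusted p = 0.0625). It passed under median-of-ratios scaling (0.86, limma adjusted p = 0.0450) and without homozygous replicate 3 (0.98, limma adjusted p = 0.0373). Over the 6 fits with 1 library left out the adjusted p reached 0.151. Slc45a2 had 7.24, 20.9 and 6.56 TPM in homozygous and 7.77, 5.44 and 5.70 TPM in WT libraries, with homozygous library 2 alone above the WT range. Its log2 fold change was 0.62 (limma adjusted p = 0.157).

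Trpm1 was the 1 of the 4 genes with a negative log2 fold change. It had 10.3, 26.6 and 7.71 TPM in homozygous libraries, against 45.0, 20.1 and 25.1 TPM in WT libraries. The groups overlapped through homozygous library 2, and the log2 fold change was -1.07 with an interval of -2.09 to -0.06 (limma adjusted p = 0.0603). Without homozygous replicate 2 it was -1.57 (limma adjusted p = 0.0175), the 1 of 6 fits with a library left out in which it passed. As a percentage of Gsta4 in the same library, Trpm1 was at 3.63%, 5.11% and 3.43% in homozygous and at 17.6%, 11.8% and 14.9% in WT libraries. As a percentage of the 4 marginal cell genes of the table, it was at 0.920%, 1.43% and 0.843% in homozygous and 4.79%, 2.60% and 3.39% in WT libraries. By both measures each homozygous library was below each WT library. These ratios were chosen after the levels had been seen, in a table treated as selected on the same samples, and carry no test. Slc45a2 was at 2.55% to 3.999% of Gsta4 in homozygous and 3.04% to 3.38% in WT libraries, with overlap.

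**Figure D5:**
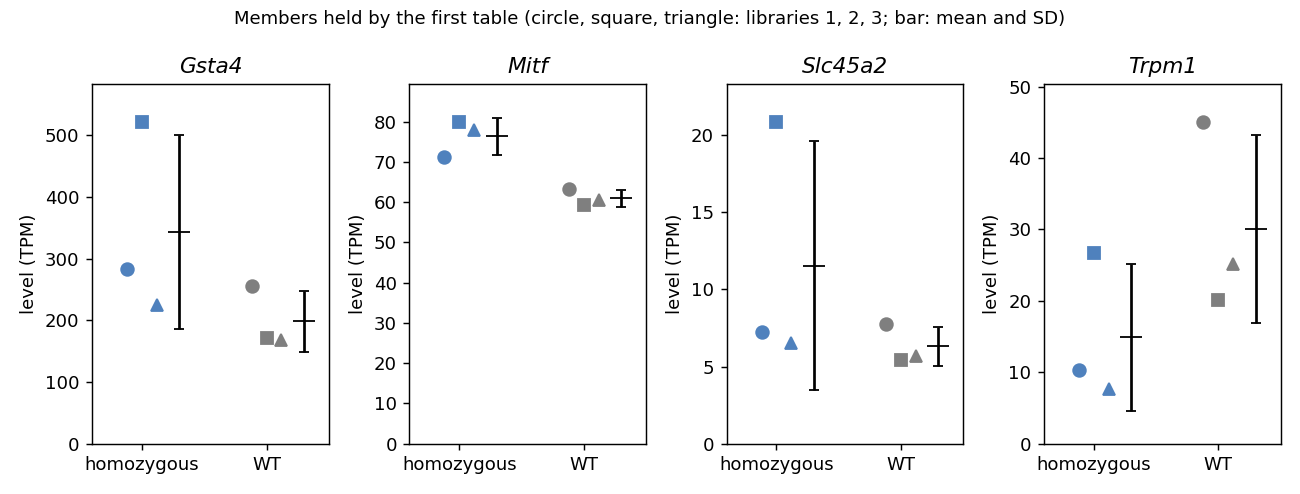
Level (TPM, linear axes from 0) of the 4 genes held by the first table in the 3 homozygous libraries (blue, left) and the 3 WT libraries (grey, right), with the mean and SD beside them (n = 3 each). Homozygous library 2 (square) is the highest homozygous library for all 4 genes, and the groups are apart for Mitf, at 71.2 to 79.9 and 59.2 to 63.3 TPM.

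Further pigment cell genes were examined in groups. Regulators and receptors of the lineage, such as Sox10, Kit and Ednrb, had 11 of 12 genes tested in the treated against homozygous comparison. Neither the adjusted test (0 genes by limma) nor an unadjusted p under 0.05 (0 genes) singled out any, and their median log2 fold change was 0.03. Over all tested genes 4.41% passed, 26.7% had an unadjusted p under 0.05, and the median was 0.20. Sox10, which acts with Mitf and is also a Schwann cell gene, had 81.4, 78.5 and 107 TPM in treated and 68.9, 68.6 and 79.6 TPM in homozygous libraries (limma adjusted p = 0.308). Ednrb, the endothelin receptor gene of melanoblasts, had 28.04, 26.2 and 39.1 TPM in treated and 41.3, 47.9 and 48.0 TPM in homozygous libraries (limma adjusted p = 0.249). In the first table Erbb3, a neuregulin receptor gene of neural crest and Schwann cells, was the 1 gene of this group and fell to 29.5 ± 4.90 TPM in homozygous libraries, against 40.0 ± 0.43 TPM in WT libraries (SD, n = 3 each, limma adjusted p = 0.0493). It kept its call only in the fit without homozygous replicate 3 of the 6 with 1 library left out, where the adjusted p ranged from 0.0371 to 0.109. Of 5 tested Schwann cell genes 4 fell in the same libraries, against 33.5% of the table, among them Prx with 113 ± 22.6 TPM in homozygous and 223 ± 16.1 TPM in WT libraries (SD, n = 3 each, limma adjusted p = 0.00847), and their part in the Erbb3 level was not tested. Of the 3 choroid plexus genes and 1 central glia gene tested in the first table, Kl (0.92) and Slc1a2 (0.62) rose and Sostdc1 (-0.86) fell on the log2 scale by limma. Beside Erbb3 and these genes, 17.9% of all tested genes of that table rose and 33.5% fell. Sostdc1 kept its call in 6, Kl in 2 and Slc1a2 in 1 of the 6 fits with 1 library left out.

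Genes of melanosome transport and biogenesis had 29 of 30 tested in the treated against homozygous comparison. By limma 0 passed, 7 had an unadjusted p under 0.05 and a positive log2 fold change, 24 lay above 0, and the median was 0.43. Of all tested genes 18.8% were higher at an unadjusted p under 0.05, and their median was 0.20. Rab32, a small GTPase of melanosome cargo transport, had 7.81, 7.50 and 5.59 TPM in treated and 1.03, 1.97 and 1.61 TPM in homozygous libraries (log2 fold change 1.59, limma adjusted p = 0.0702). It passed without treated replicate 3, where 1 merged treated sample is left (limma adjusted p = 0.0402). Mlph, the gene of melanophilin, which links melanosomes to myosin, had 23.1, 10.01 and 22.4 TPM in treated and 3.12, 7.87 and 1.85 TPM in homozygous libraries (log2 fold change 2.11, limma adjusted p = 0.0732). Both genes were higher in every treated than in every homozygous library. With treated libraries 1 and 2 merged into 1 sample, 29.2% of all tested genes were higher in both treated samples than in every homozygous library. Mlph differed between treated libraries 1 and 2 (23.1 and 10.01 TPM), which hardly differed otherwise and were counted as 1 sample. Treated library 2 lay near homozygous library 2 (7.87 TPM). For homozygous against WT, 0 of 3 tested genes of this group passed limma, against 51.3% of all genes tested in that comparison. At an unadjusted p under 0.05 there were 0 of 3, against 75.7%. Of the 3 genes, Rab27a had 10.3 ± 3.50 TPM in homozygous and 6.56 ± 1.14 TPM in WT libraries (SD, n = 3 each). Cd63 had 234 ± 54.6 TPM in homozygous and 170 ± 41.7 TPM in WT libraries (SD, n = 3 each).

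Other intermediate cell genes were Kcnj10, Met, Nrp2 and Cd44. All 4 had positive log2 fold changes in treated samples with a median of 0.65. None passed limma (0 of 4), and 2 reached an unadjusted p under 0.05, against 18.8% of all tested genes higher at that p and a median of 0.20 over all. Cd44, an adhesion receptor gene that leukocytes express too, had 55.6, 58.6 and 101 TPM in treated and 33.9, 44.6 and 37.3 TPM in homozygous libraries (limma adjusted p = 0.0979). Nrp2 had 89.2, 86.5 and 80.3 TPM in treated and 50.5, 72.4 and 51.4 TPM in homozygous libraries (limma adjusted p = 0.180). In the first table Met and Kcnj10 had log2 fold changes of 0.63 and 0.35. Of these 2 genes 0 passed limma, against 51.3% of all genes tested there. At an unadjusted p under 0.05 there were 0 of 2, against 75.7%. Macrophage genes stood beside these values. Of 11 tested 7 rose in treated samples, against 3.44% of all tested genes. The 11 genes summed to 747, 732 and 884 TPM in treated and 136, 218 and 129 TPM in homozygous libraries. C1qc, a complement gene, rose by 3.01 on the log2 scale (limma adjusted p = 0.00825), a call lost without homozygous replicate 1 (limma adjusted p = 0.0581). Their part in the levels of Rab32 and Cd44 was not tested.

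The neighbouring strial layers gave values of the same kind. Of 11 tested marginal cell genes 0 passed by limma in treated samples and 0 had an unadjusted p under 0.05, against 4.41% and 26.7% of all tested genes. The median log2 fold change of the 11 genes was 0.61, with 10 above 0, against a median of 0.20 over all. In homozygous against WT libraries 2 of 4 rose, against 17.9% of a table treated as selected on these samples, among them Lrp2, which encodes the endocytic receptor megalin and rose by 0.94 on the log2 scale (limma adjusted p = 0.0400). Lrp2 kept its call in 2 of the 6 fits with 1 library left out. Of the basal cell genes 0 of 3 passed by limma in treated samples and 0 at an unadjusted p under 0.05. Among them Cldn11, the claudin gene of the basal cell barrier, was at 95.1, 91.0 and 225 TPM in treated and 220, 262 and 215 TPM in homozygous libraries, and it passed without treated replicate 3, where 1 merged treated sample is left (log2 fold change -1.30, limma adjusted p = 0.0212). In the first table Sox8 was the 1 of 2 basal cell genes that rose (log2 fold change 0.60, limma adjusted p = 0.0408), a call kept in 1 of the 6 fits.

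Genes whose levels followed those of the pigment cell genes most closely were sought over the 5 samples of the second table. The pattern was the mean centred log2(TPM + 1) of Dct, Tyr, Pmel, Mlana, Slc45a2 and Trpm1, and likeness was the root mean square difference from it, over 13275 other genes with a mean of at least 5 TPM. The closest were Nudt4 with a difference of 0.0672, Dipk1a with 0.0798, Lrpap1 with 0.0852, 1810009A15Rik with 0.0910 and Ablim3 with 0.0941, all on the log2 scale. Dct itself differed by 0.1001, Tyr by 0.214 and Gsta4 by 0.207, while Pmel differed by 0.666 and Kcnj13 by 1.08. Nudt4 had 404, 381 and 647 TPM in treated and 371, 659 and 315 TPM in homozygous libraries. Lrpap1, which encodes a chaperone of LDL receptor family proteins such as Lrp2, had 175, 170 and 337 TPM in treated and 168, 288 and 136 TPM in homozygous libraries. With 5 samples many genes can share such a pattern, and the closeness is a description.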

How the data were processed

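Per the labels' protocols, total RNA was extracted with TRIzol and stranded total RNA libraries were made. Per the submitters' processing notes, kallisto 0.51.0 and DESeq were used with build GRCm39. The deposited values were TPM, made by the authors, in 2 tables. The first holds part of the genes by a rule not given in the sources used here. The second sums to 995747 to 996703 TPM per library. TPM keeps no sequencing depth, so no detection floor is given.

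Values of repeated symbols were summed. Genes at 1 TPM or more in at least 3 libraries were tested, 1348 and 17102, with limma 3.58.1 in R 4.3.3 on log2(TPM + 1). The design had group means, and the variance followed a trend on the mean. Tests were two-sided, Benjamini-Hochberg adjusted over the table. Fold changes on this scale understate those of low genes. The tables were fitted separately, so treated and WT libraries were not compared. Sample titles gave the groups, as allele and gene names in the genotype field ran upward from sample to sample. The labels call the libraries biological replicates without naming animals or pools, and p-values measure the spread between these libraries.

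The members, gene lists and tests were chosen with earlier results of these data known. All 10 genes are named, and of each other list the genes that passed (up to 4) or the 2 with the smallest p. Choroid plexus, mast cell, osteoclast, retinal, central glia, forebrain, basal and Schwann cell lists served as marker lists. One listed gene is not reported here.
The fit was tested on simulated data, with treated libraries 1 and 2 made identical. Of 100 genes changed by 1 on the log2 scale, it recovered 80 in homozygous against WT and 1 in treated against homozygous. Of 100 genes changed by 2 it recovered 97 and 29. Most changes of these sizes were thus missed in the simulated treated comparison. Alternatives were another pseudocount, no filter, other scalings, no trend, a replicate block and each library left out. Promoter windows are RefSeq, GRCm38.p6, matched by symbol.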

Additional observations from a re-analysis of the deposited data

How the results depend on the processing

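Of the 10 genes, 4 were tested in homozygous against WT libraries. The count of these that passed was 0, and 2 (Mitf and Gsta4) under median-of-ratios scaling. It was 0 to 1 without 1 replicate. Among the 9 tested in treated against homozygous samples the count was 0, and 1 (Kcnj13) with treated libraries 1 and 2 kept as 2 samples. It was 0 to 1 without 1 replicate there, the 1 from the fit without treated replicate 3, in which the lone treated sample is assumed to vary like the homozygous libraries. Over all genes, 692 passed in homozygous against WT libraries, 343 with a replicate block, and 103 to 611 without 1 replicate. In treated against homozygous samples 754 genes passed, and the count was 134 with no filter on low values, 479 without the mean-variance trend, 222 with treated libraries 1 and 2 both left out, 1485 with a replicate block on all 6 libraries and 3563 with libraries 1 and 2 kept as 2 samples. Without 1 replicate it was 63 to 2984. Median-of-ratios scaling moved the split of passing genes to 465 higher and 216 lower in the first table, from 241 and 451, and the median of all genes by -0.17 on the log2 scale in the second, with 402 higher and 231 lower, from 589 and 165.

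Signs changed for genes whose intervals include 0. The log2 fold change of Tyr was -0.0091 with a replicate block and with libraries 1 and 2 kept as 2 samples. Leave-one-out fits gave -0.52 to 0.64 for Tyr, -0.26 to 0.70 for Dct, -0.28 to 0.78 for Gsta4, -0.37 to 0.92 for Mlana, -0.047 to 1.10 for Slc45a2 and -2.4e-06 to 0.20 for the basal cell gene Nr2f2. Nr2f2 was at -0.0279 under median-of-ratios scaling. Mitf was at 0.0024 and the neuron gene Gad1 at -0.0775 with treated libraries 1 and 2 both left out. The cause of these changes was not tested. Same-numbered libraries correlated at -0.140 to 0.0493 in their deviations in the first table and at -0.146 to 0.0304 in the second. The numbers were therefore not treated as pairs. With the replicate block, 0 of the 4 tested genes passed in the first table and 0 of the 9 in the second.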
